A study of Homo sapiens with 12 samples.

Results

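TPM1, ACTN1, ENAH and EPB41 are 4 genes of the actin and membrane skeleton whose transcripts are spliced in several ways, and their RNA was examined here for contact with the splicing factor RBFOX2 (written FOX2), beside TDP43 and hnRNP M. The members are strand-specific gene intervals in build hg19: TPM1 on chromosome 15, plus strand, 63334838 to 63364111; ACTN1 on chromosome 14, minus strand, 69340840 to 69446083; ENAH on chromosome 1, minus strand, 225674534 to 225840845; and EPB41 on chromosome 1, plus strand, 29213603 to 29446553. They are 4 of 97574 regions with signal in the series, the others being strand-specific bins of 10 kb, and 4 of the 10548 regions that passed the filter on low counts. The genes were chosen by measured values of these libraries, their FOX2 counts in introns against those of TDP43 and hnRNP M. The level of FOX2 against the other proteins in these genes is therefore given as a description, and only the comparison of P-KO with WT cells is tested.

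Each protein was profiled by iCLIP in 2 libraries from P-KO cells and 2 from wild-type (WT) cells, 12 in all, and both genotypes are of H9, a line of human embryonic stem cells in wide use. In iCLIP, ultraviolet light (400 mJ per square centimetre here, for all groups) links proteins to RNA in direct contact, an antibody recovers one protein, and reverse transcription stops beside the crosslink, whose position the cDNA end therefore gives. The source label of the P-KO cells carries the name SPA, a class of long noncoding RNAs made on the plus strand of chromosome 15; the labels do not spell out P-KO or give the number of clones. Between 25000001 and 26000000 on that strand lay 0.0530% to 0.160% of window counts in the 6 P-KO libraries and 0.915% to 1.63% in the 6 WT libraries, so the 2 sets did not overlap at the named locus. Each deposited line is 1 nucleotide with a count, read here as a window of 11 nt, and non-overlapping windows were kept from the highest count downwards. Libraries held 58191 to 648651 window counts, the hnRNP M libraries being the shallowest and FOX2 P-KO replicate 2 the deepest, so levels are scaled to 1000000 window counts per library (CPM). A place with no line is described as listed at 0. The lists leave out counts under 2 and hold no p-value or q-value above 0.05. A place listed at 0 may therefore have had counts that were left out.

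FOX2 recognises GCAUG-like elements in introns, and an element downstream of an alternative exon is known to favour its inclusion, one upstream its skipping. TDP43 prefers GU repeats, and hnRNP M is a nuclear protein that takes part in splicing as well. TPM1 encodes a tropomyosin, a coiled coil that lies along the actin filament, and has alternative internal and terminal exons. ACTN1 encodes an alpha-actinin, which crosslinks actin filaments and has alternative exons in its calcium-binding part. ENAH (Mena) promotes actin filament elongation and has an exon used mainly in epithelial cells. EPB41 anchors spectrin and actin to the membrane through a domain whose alternative exon is controlled in red cell development and is a known FOX2 target.

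TPM1 carried the most FOX2 signal of the 4 genes in every FOX2 library. It had 7223 and 6154 CPM in the FOX2 P-KO libraries and 3287 and 3041 CPM in the FOX2 WT libraries. TDP43 had 799 and 864 CPM there in P-KO cells and 890.3 and 816 CPM in WT cells. The hnRNP M libraries had 1257 and 429.6 CPM in P-KO and 665 and 526 CPM in WT. All 4 FOX2 libraries thus lay above every TDP43 and hnRNP M library, by 8.04-fold over TDP43 in P-KO cells and 3.71-fold in WT cells as ratios of group means. Over hnRNP M the fold was 7.93 in P-KO and 5.31 in WT, the P-KO value resting on 2 hnRNP M libraries that differ widely.

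ACTN1 had 1619 and 2399 CPM in FOX2 P-KO, against 992 and 1327 CPM in FOX2 WT. TDP43 came closer here, with 771 and 1022 CPM in P-KO and 462 and 657 CPM in WT. FOX2 was 2.24-fold above TDP43 in P-KO cells and 2.07-fold in WT cells, and within each genotype the libraries of the 2 proteins did not overlap. The hnRNP M libraries held only 18 and 3 window counts in P-KO cells and 11 and 45 in WT cells in this gene, that is 290.2 and 51.6 CPM in P-KO and 179 and 364 CPM in WT.

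ENAH had 1275 and 819 CPM in FOX2 P-KO, against 1056 and 613 CPM in FOX2 WT. TDP43 had 463 and 95.7 CPM in P-KO and 395 and 318 CPM in WT, while hnRNP M had 306 and 103 CPM in P-KO and 259.6 and 583 CPM in WT. Each FOX2 library of a genotype was above each TDP43 and hnRNP M library of that genotype. The distance was small in WT cells, where the lower FOX2 library stood at 613 CPM and the higher hnRNP M library at 583 CPM. It did not hold there in introns alone: 63.5% and 61.8% of the FOX2 counts of ENAH were intronic in P-KO and 55.4% and 49.7% in WT. From intron windows FOX2 had 809.7 and 506 CPM in P-KO and 585 and 305 CPM in WT. TDP43 had 406 and 75.2 CPM from introns in P-KO and 361 and 307 CPM in WT, and hnRNP M had 306 and 103 CPM in P-KO and 259.6 and 567 CPM in WT. In introns, then, FOX2 lay above both proteins in P-KO cells and overlapped both in WT cells, while TPM1 and ACTN1 stayed separated from both proteins in both genotypes.

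EPB41 had the least FOX2 and TDP43 signal of the 4 genes by group mean, and the proteins were not separated in it throughout. FOX2 had 435 and 224 CPM in P-KO cells and 128 and 225 CPM in WT cells. TDP43 had 139 and 123 CPM in P-KO and 188 and 102 CPM in WT, which is below FOX2 in P-KO but overlaps it in WT. The hnRNP M libraries had 129 and 241 CPM in P-KO cells and, in WT cells, none listed in replicate 1 and 129.6 CPM in replicate 2, from 16 window counts. Over all windows they overlapped FOX2 in both genotypes. From intron windows the overlap with hnRNP M in WT did not hold. There FOX2 WT had 128 and 225 CPM, and hnRNP M WT had 0 and 105 CPM, the latter from 13 counts. In introns FOX2 still overlapped TDP43 in WT cells and hnRNP M in P-KO cells.

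**Figure D1:**
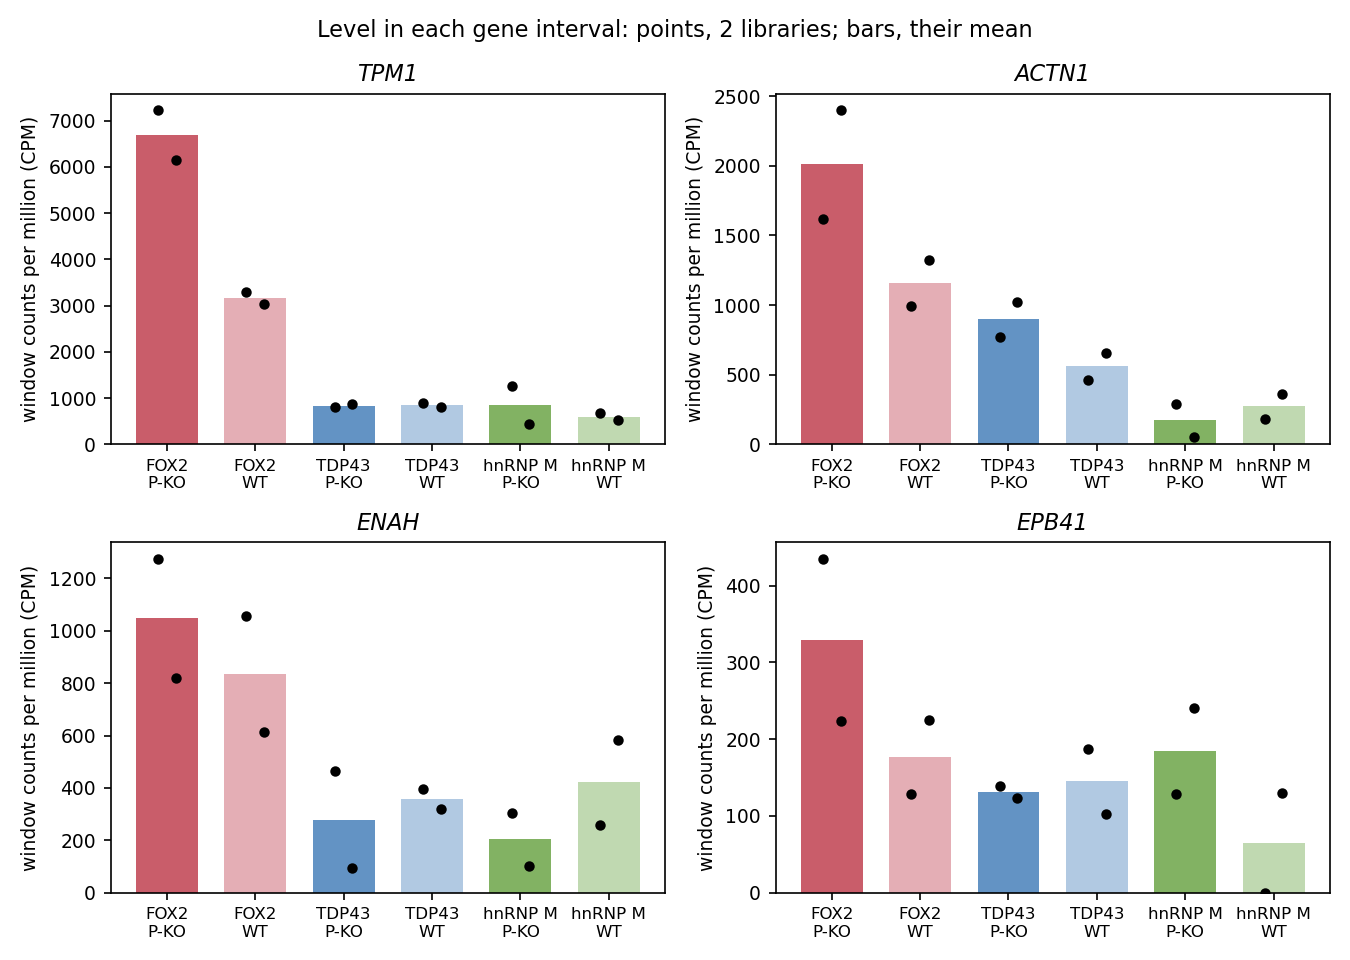
Level of each gene in CPM (linear axes that differ between panels), with 1 point per library and bars at the mean of 2 libraries; P-KO stands left of WT within each protein. FOX2 in TPM1 averages 6689 CPM in P-KO and 3164 CPM in WT. In EPB41 the lower FOX2 WT point, 128 CPM, lies among those of TDP43 and hnRNP M. The higher one, 225 CPM, lies above all of them except hnRNP M P-KO replicate 2, at 241 CPM.

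Both FOX2 libraries lay above both TDP43 libraries in 4 of the 4 genes in P-KO cells, against 22.2% of all tested regions, and in 3 of 4 in WT cells, against 27.7%. Over hnRNP M this held in 3 of 4 genes in P-KO cells (27.1% of all regions) and 3 of 4 in WT cells (25.8%). Nothing is read from these counts, since the genes were picked for FOX2 signal. Set against the length of the interval, introns included, FOX2 signal in P-KO cells was 228 ± 25.8 CPM per kb in TPM1, 19.1 ± 5.24 in ACTN1, 6.29 ± 1.94 in ENAH and 1.41 ± 0.642 in EPB41 (SD, n = 2 each). In WT cells the same order stood at 108 ± 5.94, 11.02 ± 2.25, 5.02 ± 1.88 and 0.758 ± 0.295 CPM per kb. No neighbours in this order overlapped between libraries in either genotype. By group mean, TDP43 and hnRNP M kept the order in both genotypes at lower levels. TDP43 ran from 28.4 ± 1.57 CPM per kb in TPM1 to 0.562 ± 0.0487 in EPB41 in P-KO cells. In WT cells it ran from 29.1 ± 1.79 to 0.623 ± 0.259. The hnRNP M values ran from 28.8 ± 20.0 to 0.793 ± 0.339 in P-KO and from 20.4 ± 3.36 to 0.278 ± 0.393 in WT. RNA abundance was not measured, so more contact per RNA and more RNA cannot be told apart.

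Much of the FOX2 signal lay in a few short stretches, with the leading one in the part of the gene nearer the 3′ end. FOX2 was also listed outside them, in 25 of the 30 bins of 1 kb in TPM1 for example. The bin centred 1.5 kb from the 5′ end of TPM1 had 745 and 791 CPM in FOX2 P-KO, against 315 and 464 CPM in FOX2 WT, a level near that of the bin at 23.5 kb, with 995 and 797 CPM in P-KO and 370.3 and 409 CPM in WT. In each gene the 1 kb with the highest FOX2 level in the 2 WT libraries was located, and its values were then read in all libraries; this rule was set once the values had been seen. The WT values of these stretches are set by the choice. The P-KO values did not place the stretches, but they are not free of selection. The genes were picked by FOX2 counts of these libraries, and the rule was set with the P-KO values known. The levels of both genotypes in the stretches are therefore a description. Intron numbers below are those of the deposited lists; in all 17 transcripts of the 4 genes with several numbered introns they rise with the chromosome coordinate, so on the minus strand (ACTN1 and ENAH) they count from the 3′ end of the gene.

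In TPM1 the leading stretch ran from 63357343 to 63358342, 22.5 kb from the 5′ end of the interval. It is 3.42% of the gene's length and held 36.2% and 36.2% of the gene's FOX2 window counts in the P-KO libraries, and 38.1% and 36.7% in the WT libraries. The share was thus nearly the same in all 4 libraries. In CPM it stood at 2614 and 2229 in FOX2 P-KO, against 1253 and 1115 in FOX2 WT. TDP43 had 52.1 and 85.4 CPM there in P-KO and 116 and 63.6 in WT, and hnRNP M was listed at 0 in all 4 of its libraries. Of the 106 FOX2 windows in it, 84.0% were intronic, most often in intron 9 of ENST00000288398.6. A second stretch, from 63355507 to 63356506, lies just upstream on the transcript, with intron 8 of the same transcript as its most frequent label. It had 1361 and 1058 CPM in FOX2 P-KO, against 704 and 540.4 CPM in FOX2 WT. No TDP43 library had more than 34.8 CPM there. The hnRNP M libraries had 129 and 0 CPM there in P-KO and 0 and 81.0 CPM in WT.

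In ACTN1 a single stretch held most of the FOX2 signal. It ran from 69345348 to 69346347, 94.8% of the way along the gene from its 5′ end, and is 0.950% of the gene's length. It held 82.2% and 75.5% of the gene's FOX2 counts in P-KO cells and 61.8% and 75.2% in WT cells. TDP43 and hnRNP M were listed at 0 there in all 8 of their libraries, although TDP43 had 96 to 299 counts elsewhere in the gene in each library. In CPM the stretch had 1331 and 1811 in FOX2 P-KO, against 613 and 998 in FOX2 WT. Of its 83 FOX2 windows 69.9% were intronic, led by intron 3 of ENST00000438964.2, and the others carried no intron number. Its second stretch held at most 66.3 CPM in any FOX2 library. The highest TDP43 stretch of the gene, chosen in the same way from TDP43 WT, lay elsewhere, at 69365286 to 69366285 in intron 13 of ENST00000193403.6. TDP43 had 92.7 and 314 CPM there in P-KO and 217 and 191 CPM in WT, and FOX2 had 9 counts, all in WT replicate 2.

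ENAH had its leading FOX2 stretch from 225683808 to 225684807 outside labelled introns: 0 of its 60 FOX2 windows carried an intron number, and each was assigned to ENST00000366844.3. It had 448 and 305 CPM in FOX2 P-KO, against 457 and 259.8 CPM in FOX2 WT, so the genotypes overlapped. The second stretch, 225690418 to 225691417, was intronic in all 37 of its FOX2 windows, in intron 2 of ENST00000488523.1. Here FOX2 had 465 and 265 CPM in P-KO cells and 155 and 58.9 CPM in WT cells, with both P-KO libraries above both WT libraries. As shares of the gene's FOX2 counts this is 36.5% and 32.4% in P-KO and 14.7% and 9.60% in WT. TDP43 and hnRNP M were listed at 0 there in all 8 libraries. At the first stretch they had 3 counts in TDP43 WT replicate 1 and 2 counts in hnRNP M WT replicate 2, and no others. The difference in genotype ratio between the 2 stretches was not tested.

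EPB41 had 1 FOX2 stretch of note, from 29386893 to 29387892, 173 kb from the 5′ end, with all 25 FOX2 windows intronic and mostly in intron 13 of ENST00000356093.2. It held 61 and 72 window counts in FOX2 P-KO, against 13 and 3 in FOX2 WT, that is 263 and 111 CPM in P-KO and 59.4 and 10.4 CPM in WT. This is 60.4% and 49.7% of the gene's FOX2 counts in P-KO, and 46.4% and 4.62% in WT, on 0.429% of its length. The 2 WT libraries thus disagree, and the larger one, with 65 counts in the gene, had nearly all of them elsewhere. TDP43 WT replicate 1 had 7 counts there, and the other TDP43 and hnRNP M libraries none.

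**Figure D2:**
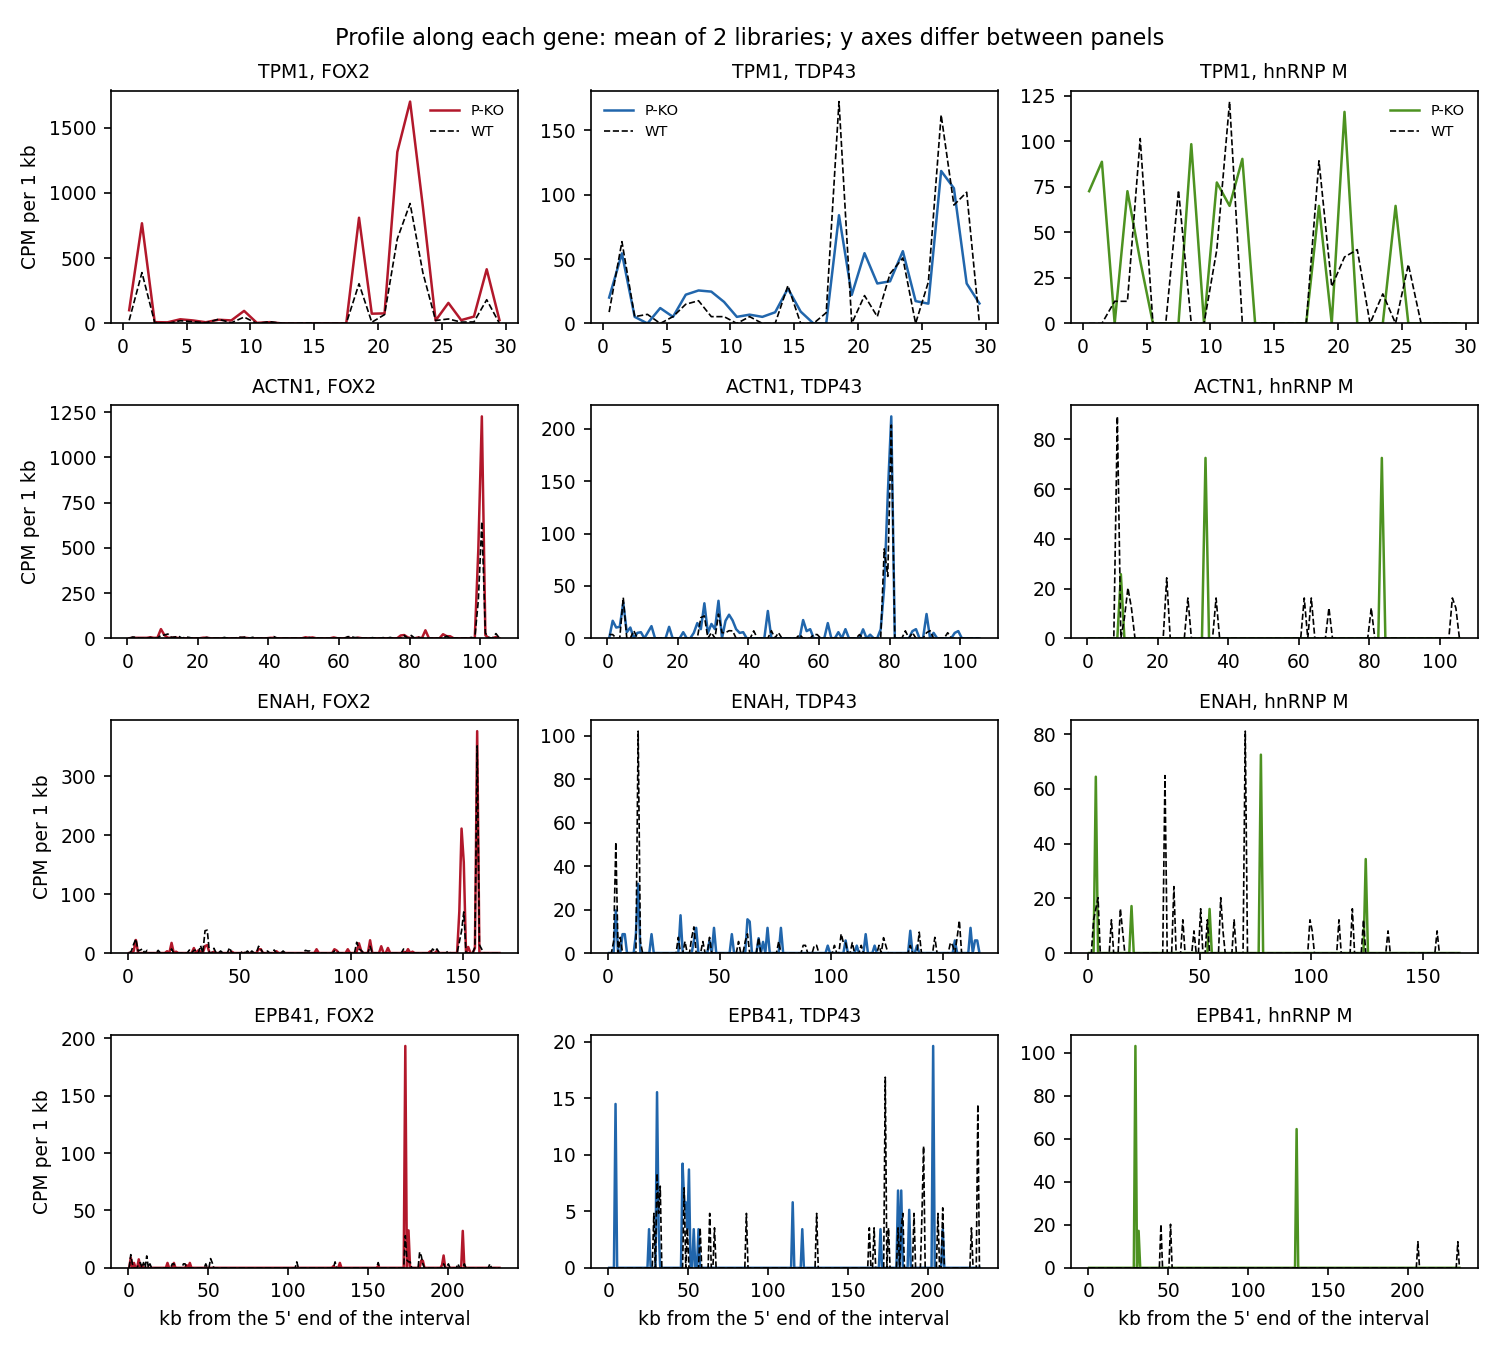
Profiles in CPM per 1 kb (linear axes that differ between panels) against distance in kb from the 5′ end of each interval, as means of 2 libraries, P-KO solid and WT dashed. FOX2 peaks at 22.5 kb in TPM1 and near the far end of ACTN1, and the TDP43 peak of ACTN1 stands apart from it.

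The FOX2 profiles of both genotypes were close in TPM1 and ACTN1 and less so in ENAH and EPB41. Across 1 kb bins, Pearson's r between the mean FOX2 P-KO and FOX2 WT profiles was 0.991 in TPM1 (30 bins), 0.994 in ACTN1 (106 bins), 0.896 in ENAH (167 bins) and 0.694 in EPB41 (233 bins). Between FOX2 and TDP43, each averaged over 4 libraries, r was 0.292, -0.0243, 0.0325 and 0.340 in the same order of genes. For TDP43 itself, P-KO against WT, r was 0.855, 0.913, 0.603 and 0.162. In TPM1, ACTN1 and ENAH the r within a protein was thus above that between proteins, and in EPB41 the r of FOX2 with TDP43 was above that of TDP43 with itself. The bins of a gene share its libraries and one transcript, and a few high bins carry each value, so r is a description. In EPB41 the 2 FOX2 WT libraries themselves had r = 0.284, against 0.949 for the 2 FOX2 P-KO libraries.

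Sites were formed by merging kept windows of all 12 libraries that share at least 1 nt. The 4 genes held 939 sites, of which FOX2 had 549, TDP43 had 384 and hnRNP M had 86, listed in at least 1 library. FOX2 and TDP43 shared 58 of them, 10.6% of the FOX2 sites and 15.1% of the TDP43 sites. Over the whole series these shares were 4.59% and 4.86%. Most of the shared sites, 42, were in TPM1, where they made up 23.2% of the FOX2 sites and 36.2% of the TDP43 sites. In ACTN1, ENAH and EPB41 between 3.77% and 5.71% of the FOX2 sites were also listed for TDP43. FOX2 and hnRNP M shared 17 sites, 3.10% of the FOX2 sites and 19.8% of the hnRNP M sites, against 1.09% and 5.66% in the whole series. These shares are a description only, since FOX2 level chose the genes and sites were merged over all 12 libraries. TPM1 held 181 FOX2 sites and 116 TDP43 sites in the shortest of the 4 intervals. The part of this density in its shares was not tested. The counts of sites change with how they are formed, as given in the closing part.

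FOX2 sites listed in all 4 FOX2 libraries numbered 40: 26 in TPM1, 9 in ACTN1, 5 in ENAH and 0 in EPB41. They were 7.29% of the FOX2 sites of these genes, against 0.871% of FOX2 sites in the whole series, a description only since FOX2 level chose the genes. For TDP43, 7 sites were listed in all 4 of its libraries, and for hnRNP M 0. The 40 sites carried 59.4% and 52.6% of the genes' FOX2 counts in P-KO and 58.3% and 58.5% in WT. In 28 of them every window was intronic, in 7 none was, and 5 held both kinds. TDP43 was listed in at least 1 library at 15 of the 40 sites, 14 of these in TPM1.

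The highest site of TPM1 lay at 63357479 to 63357514, in intron 9 of ENST00000288398.6. It had 185 and 499 counts in FOX2 P-KO, against 123 and 128 in FOX2 WT, that is 797 and 769 CPM in P-KO and 562 and 443 CPM in WT. TDP43 had 0 and 3 counts there in P-KO and 8 and 8 in WT. The next site, at 63353301 to 63353381, was also the highest TDP43 site of the gene. FOX2 had 680.5 and 274 CPM in P-KO and 274 and 114 CPM in WT, while TDP43 had 98.5 and 20.5 CPM in P-KO and 259.9 and 60.1 CPM in WT. It was the only site of the 4 genes listed in 2 hnRNP M libraries, with 8 and 4 counts in the WT libraries. At 63358057 to 63358135, where 14 of 27 windows carried an intron number, FOX2 had 573 and 351 CPM in P-KO and 187 and 187 CPM in WT. The site at 63356104 to 63356175 in intron 8 had 418 and 359 CPM in FOX2 P-KO, against 133 and 152 CPM in FOX2 WT.

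The 4 highest sites of ACTN1 all lay in its leading stretch. The highest, at 69345711 to 69345759, carried no intron number and had 67 and 146 counts in FOX2 P-KO, against 32 and 26 in FOX2 WT, that is 289 and 225 CPM in P-KO and 146 and 90.1 CPM in WT. All windows of the others were intronic, with intron 3 of ENST00000438964.2 among their labels. At 69345834 to 69345862 FOX2 had 103 and 242 CPM in P-KO and 96.0 and 180.1 CPM in WT. At 69346025 to 69346070 it had 121 and 271 CPM in P-KO and 82.3 and 121 CPM in WT, and at 69345808 to 69345832 it had 151 and 199 CPM in P-KO and 91.4 and 128 CPM in WT. The genotypes did not overlap at the first and last of these 4 sites and overlapped at the others. TDP43 and hnRNP M were listed at 0 at all 4. The highest TDP43 site of the gene, at 69365581 to 69365607 in intron 13, had 17.4 and 34.2 CPM in TDP43 P-KO and 106 and 60.1 CPM in TDP43 WT, with FOX2 listed at 0.

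In ENAH the highest FOX2 site, at 225684467 to 225684493, carried no intron number and had 22 and 27 counts in FOX2 P-KO, against 25 and 20 in FOX2 WT, or 94.8 and 41.6 CPM in P-KO and 114 and 69.3 CPM in WT. A further such site at 225684618 to 225684645 had 116 and 15.4 CPM in P-KO and 41.1 and 27.7 CPM in WT. The intronic site at 225690765 to 225690801 had 142 and 15.4 CPM in FOX2 P-KO, against 54.9 and 0 CPM in FOX2 WT, and the one at 225690837 to 225690851 had 142 and 38.5 CPM in P-KO and 0 and 20.8 CPM in WT. The genotypes overlapped at all but the last of these ENAH sites. The highest TDP43 site, at 225827467 to 225827482 in intron 14 of ENST00000366844.3, lies toward the other end of the gene, with 17.4 and 0 CPM in TDP43 P-KO and 52.9 and 10.6 CPM in TDP43 WT.

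EPB41 had only 3 FOX2 sites listed in 3 or more FOX2 libraries, all within its stretch in intron 13. The highest, at 29387175 to 29387212, had 17 and 23 counts in FOX2 P-KO, against 5 and 0 in FOX2 WT, or 73.2 and 35.5 CPM in P-KO and 22.9 and 0 CPM in WT. The site at 29387060 to 29387078 had 38.8 and 4.62 CPM in P-KO and 0 and 10.4 CPM in WT, and the one at 29387098 to 29387110 had 21.5 and 6.17 CPM in P-KO and 13.7 and 0 CPM in WT. The highest hnRNP M site in each of the 4 genes rested on a single library, with 10 to 12 counts.

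**Figure D3:**
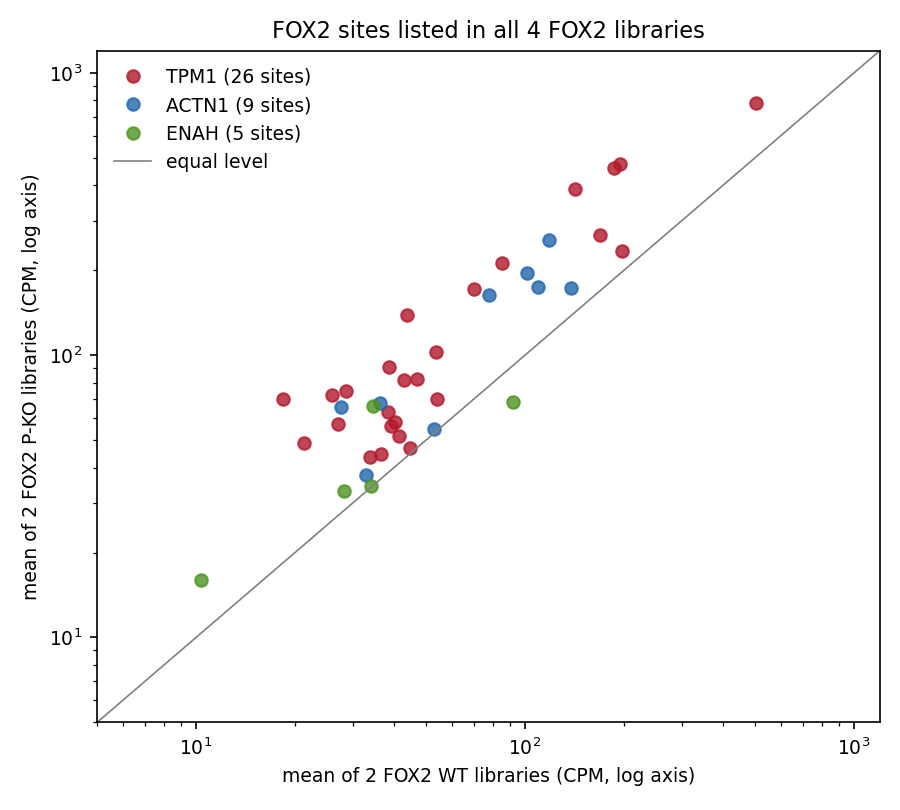
Mean FOX2 level in P-KO cells against WT cells (CPM, log axes) at the 40 sites listed in all 4 FOX2 libraries, 1 point per site. The TPM1 and ACTN1 points lie above the line of equal level, and of the 5 ENAH points the highest one lies below it.

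The next question was whether P-KO cells differ from WT cells in these genes. In none of the 4 genes did P-KO differ from WT past the threshold for any protein, by edgeR or DESeq2. In the edgeR quasi-likelihood test with Benjamini-Hochberg adjustment over all 10548 regions, FOX2 had log2 fold changes of 1.24 in TPM1, 0.99 in ACTN1, 0.49 in ENAH and 0.97 in EPB41, with an adjusted p of 1 for each. The unadjusted p-values of this edgeR test ran from 0.352 in TPM1 to 0.706 in ENAH. Those of DESeq2 ran from 0.149 in TPM1 to 0.854 in ENAH. By edgeR 0.019% of all regions were called for FOX2, and 0 of the 4 genes, of which 0 had an unadjusted p under 0.05 by either tool. The median log2 fold change of all regions was -0.21 for FOX2, and -0.38 without TMM normalization. Without TMM the value was 1.08 in TPM1 and 0.79 in ACTN1. A log2 fold change for TPM1 of 0.56 was found in the fit of the FOX2 libraries alone, 0.37 by the number of windows in place of their counts, and 0.66 over regions with at least 20 counts in 2 libraries. For ACTN1 these values were 0.26, -0.079 and 0.41. For EPB41 the FOX2 libraries alone gave 0.37, the number of windows 0.0094 and the highest count per 100 nt 0.14.

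In CPM, both FOX2 P-KO libraries lay above both WT libraries in TPM1 and ACTN1, 2 of the 4 genes, while the groups overlapped in ENAH and EPB41. Among all tested regions 16.7% had both FOX2 P-KO libraries above both WT libraries, and 26% had both below. Apart from the 4 genes these regions are bins of 10 kb, and no share was taken over regions with as many counts as the genes. The median FOX2 log2 fold change was -0.21 over all regions and 0.049 over the 3279 with at least 20 counts in 2 libraries. With 2 libraries against 2, the smallest exact p for a single gene would be 0.333. Counts per window moved with the genotype in these libraries as a whole: the mean was 3.84 and 5.76 in FOX2 P-KO, against 2.76 and 2.93 in FOX2 WT. In TPM1 it was 13.6 and 21.5 in P-KO and 8.66 and 9.44 in WT, with 123 and 186 windows in P-KO and 83 and 93 in WT.

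At the 40 repeated FOX2 sites, 20 had both P-KO libraries above both WT libraries and 0 had both below. Over the 2626 such sites of the whole series 43.9% were above and 2.93% below, so the share in the 4 genes was close to that of the series. The median log2 ratio of P-KO to WT at these sites was 0.86 in the 4 genes and 0.71 in the series. The 20 sites were 15 in TPM1 and 5 in ACTN1. Such sites took 22.5% and 21.1% of all FOX2 counts in P-KO libraries and 11.7% and 14.0% in WT libraries. The part of this series-wide difference in the values of TPM1 and ACTN1 was not tested.

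**Figure D4:**
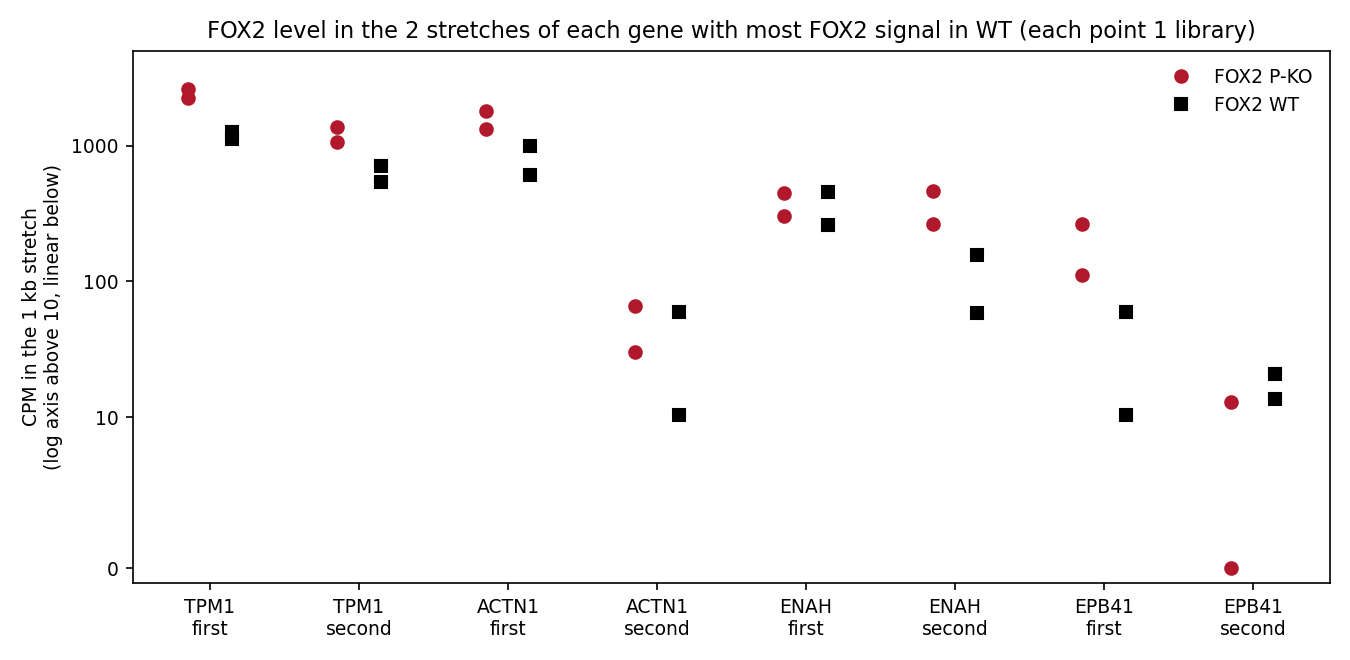
FOX2 level in CPM (log axis above 10, linear below) in the first and second stretch of each gene, 1 point per library, P-KO left of WT. Both P-KO points stand above both WT points in the 2 stretches of TPM1, the first of ACTN1, the second of ENAH and the first of EPB41, and overlap or lie below them in the others. The share of such stretches over the whole series was not computed, so nothing is read from how many are separated.

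For TDP43, the log2 fold changes of P-KO over WT were -0.13 in TPM1, 0.58 in ACTN1, -0.62 in ENAH and -0.23 in EPB41, with an adjusted p of 1 for each by edgeR. Called regions were 0.0284% of all, and 0 of these genes; the unadjusted p-values ran from 0.633 to 0.920. ACTN1 was the one gene in which both TDP43 P-KO libraries, 771 and 1022 CPM, lay above both WT libraries, 462 and 657 CPM; this held in 16.2% of all regions, and the reverse in 12.8%. The ENAH value rests on TDP43 P-KO replicate 2, which had 28 counts in the gene, and the log2 fold change was 0.10 without it.

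For hnRNP M the fitted values were -0.01 in TPM1, -1.48 in ACTN1, -1.84 in ENAH and 0.56 in EPB41. The smallest adjusted p by edgeR was 0.497 (unadjusted 0.179), in ENAH, and 0.0474% of all regions were called. The libraries overlapped in every gene, while 9.16% of all regions had both P-KO libraries above both WT libraries and 9.39% had both below. Few counts stand behind some of these values: EPB41 had 8 and 14 counts in hnRNP M P-KO and 0 and 16 in WT. The ENAH value was -0.057 without hnRNP M WT replicate 2, which held 72 counts in the gene against 16 in WT replicate 1, and -2.97 without hnRNP M WT replicate 1.

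Over the 3 proteins together, edgeR gave a genotype effect of 0.37 in TPM1, 0.09 in ACTN1, -0.63 in ENAH and 0.44 in EPB41 on the log2 scale, with adjusted p = 1 in each, where 0.123% of regions were called. The difference of the genotype effect between proteins did not pass in any of the 4 genes, with edgeR adjusted p-values of 1 in TPM1 and EPB41, 0.857 in ACTN1 and 0.894 in ENAH. Across all regions 0% passed this interaction test, 514 had an unadjusted p under 0.05, and DESeq2 called 1. The spread between libraries is large, with a biological coefficient of variation of 1.08. This is 1 value common to all tested regions and all 3 proteins, not that of each of the 4 genes. A p above the threshold does not show that the genotypes are alike. In a fit of 10 kb bins in place of gene intervals, 19 bins of the 4 genes were tested and 0 passed in any comparison.

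**Figure D5:**
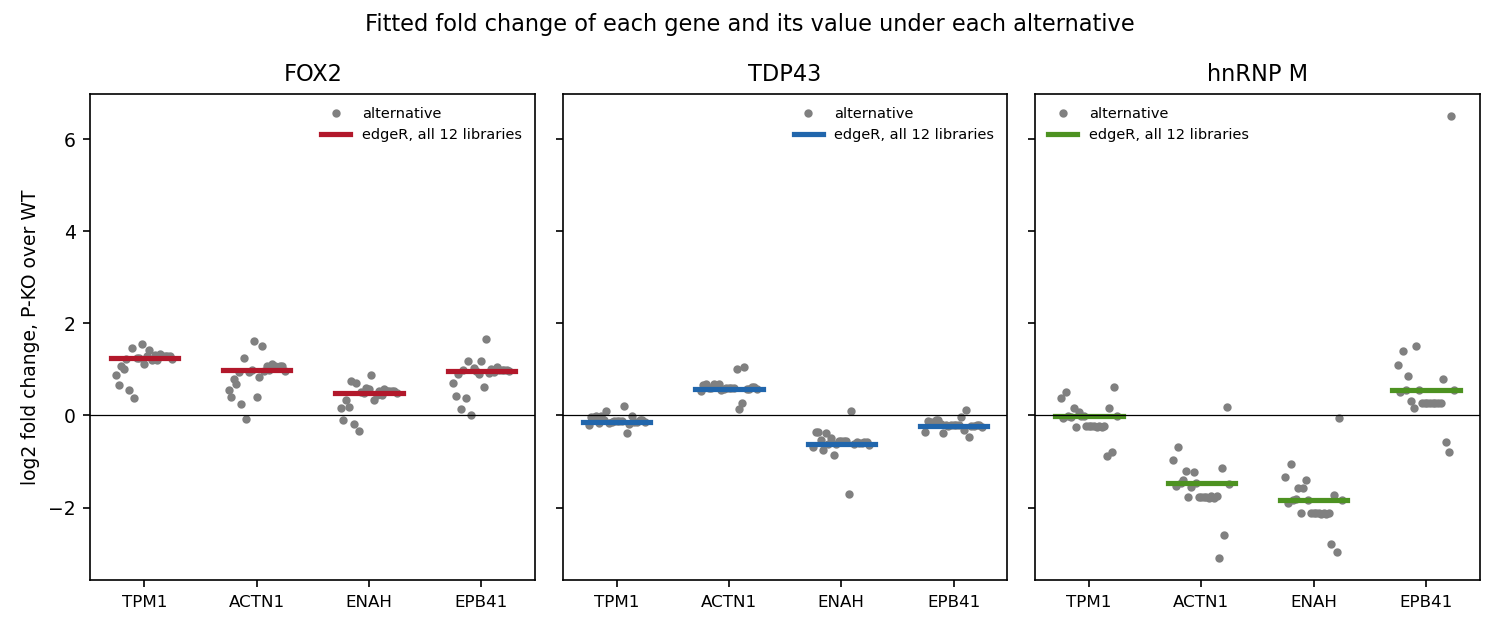
Fitted log2 fold change of P-KO over WT for each gene and protein (coloured lines, edgeR with all 12 libraries) and its value under each alternative setting (grey points). FOX2 in TPM1 stays between 0.37 and 1.56, while hnRNP M in EPB41 runs from -0.79 to 6.51, the highest value being that without hnRNP M WT replicate 2, where the WT group is listed at 0.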

How the data were processed

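Bowtie and GRCh37 (hg19) are the aligner and build named by the submitters' processing notes; the peak caller, versions and filters are not stated there. The authors deposited, for each library, a list of crosslinked nucleotides with a raw count, not scaled to depth. Beside it stands a p-value or q-value, in the deposited lists never above 0.05; which of them it is, and whether counts are reads or collapsed cDNAs, was not stated.

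Positions at least 11 nt apart on a strand were kept from the highest count downwards, and their counts summed per gene interval and per 10 kb bin elsewhere. edgeR 4.0.16 in R 4.3.3 was run with filterByExpr, TMM and its quasi-likelihood F test, with 12 libraries in one fit, a mean per protein and genotype, and a threshold of 0.05 after Benjamini-Hochberg adjustment; it was tested on simulated data. DESeq2 1.42.0 was an alternative, and Python 3.11.15 made the other values. Replicates, which the design text calls biological, differed by more than sampling noise, with chi-square per degree of freedom of 5.22 to 8.68; p-values measure the spread between these libraries only.

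Members and lists were chosen with earlier results of these data known. Named sites were the 4 of highest mean FOX2 CPM among those listed in at least 3 FOX2 libraries, and the highest TDP43 and hnRNP M site of each gene. A planned list of other cytoskeletal genes and a motif search at the sites were not run, since no hg19 genome or table pairing transcripts with symbols was used here.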

Additional observations from a re-analysis of the deposited data

How the results depend on the processing

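TPM1, ACTN1, ENAH and EPB41 did not pass the threshold in any test of genotype, over 53 comparisons with another setting and 60 without 1 library. Each comparison of a refit is counted by itself, so the refits were fewer and are not independent. FOX2 kept a value above 0 in TPM1 (0.37 to 1.56) and EPB41 (0.0094 to 1.67) under all 23 alternatives. In ACTN1 it was -0.079 by the number of windows, and in ENAH it was -0.34 by the number of windows, -0.10 over regions with at least 20 counts in 2 libraries and -0.18 with the FOX2 libraries alone (log2). For TDP43 in TPM1 the number of windows gave 0.10. For hnRNP M in TPM1 DESeq2 gave 0.39, edgeR without TMM 0.50, the number of windows 0.074 and its libraries alone 0.16. Over the 3 proteins together, ACTN1 had -0.089 with at least 20 counts and -0.0020 with the highest count per 100 nt, and EPB41 had -0.14 by the number of windows.

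Leaving out each library in turn, the log2 fold change ran from -0.39 to 0.20 in TPM1, -1.71 to 0.10 in ENAH and -0.46 to 0.12 in EPB41 for TDP43. For hnRNP M it ran from -0.88 to 0.62 in TPM1, -3.10 to 0.18 in ACTN1, -2.97 to -0.057 in ENAH and -0.79 to 6.51 in EPB41, and over the 3 proteins from -0.27 to 0.69 in ACTN1. For FOX2 it ran from 0.39, without FOX2 P-KO replicate 2, to 1.62 in ACTN1 and from 0.62 to 1.67 in EPB41.

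The log2 ratios of FOX2 to the other proteins also moved. The number of windows in place of counts gave 1.64 in P-KO and 1.00 in WT for TPM1 over TDP43, and 1.23 in P-KO and 0.79 in WT over hnRNP M. For ACTN1 it gave 0.037 in P-KO and 0.48 in WT over TDP43, 2.02 in P-KO and 0.94 in WT over hnRNP M, and for EPB41 in WT over TDP43 -0.0085. The highest count per 100 nt gave 2.61 in P-KO and 1.49 in WT for TPM1 over TDP43, and 1.89 over hnRNP M in WT. Library totals scaled by TMM gave 3.34 for TPM1 over TDP43 in P-KO. Over hnRNP M they gave 5.15 in P-KO and 3.89 in WT for TPM1, 5.81 in P-KO and 3.31 in WT for ACTN1, 4.49 in P-KO and 2.13 in WT for ENAH, and 2.78 in P-KO for EPB41. Intron positions alone gave 1.73 for TPM1 and 0.30 for ENAH over TDP43 in WT. Without 1 library, ACTN1 over hnRNP M in P-KO ran from 2.79 to 5.28, ENAH over TDP43 in P-KO from 1.18 to 3.45, and EPB41 over TDP43 in WT from -0.18 to 0.79. The causes of these shifts were not tested.

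The 549 FOX2 sites became 326 with windows up to 30 nt apart merged, 307 with a listed p or q of at most 0.01 and 347 with counts of at least 4. The 40 sites in all 4 FOX2 libraries became 25 with the wider merging. The 58 sites shared with TDP43 became 28 at 0.01 and 35 with at least 4 counts.

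Same-numbered replicates of P-KO and WT share a number in their labels, which do not say whether they were paired. The correlation of their deviations across 10548 regions was 0.131 in FOX2, 0.0967 in TDP43 and 0.0333 in hnRNP M libraries. These values do not settle whether the libraries were paired. With the replicate block, FOX2 in TPM1 was 1.24 and in ACTN1 0.95, and 0 of the 4 genes passed. Called regions with the block were 9, against 2, for FOX2, and 4, against 3, for TDP43. Calls for FOX2 ran from 0 of 10548 regions with robust edgeR to 16 of the 1187 regions tested by the number of windows. DESeq2 called 11 of 10548 for FOX2 and 7 of 10548 for TDP43. For hnRNP M robust edgeR called 0 of 10548, against 5.

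The hnRNP M libraries are the shallowest: their fit alone did not test EPB41, and without WT replicate 2 EPB41 gives no ratio to hnRNP M in WT. The planned list of cytoskeletal genes and the sequence at sites were not run.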
